A study of Mus musculus with 16 samples.

Results

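Goblet cells of the distal colon, isolated by sorting from mice labelled as lacking Spdef, were compared with goblet cells of mice that keep it, across all genes, to ask which gene functions were lost, gained or kept. The comparison used 8 of the 16 RNA-sequencing libraries of the series, 4 of goblet cells (GC) from RedMUC298trTg mice (WT_GC, libraries 9, 11, 13 and 18) and 4 from RedMUC298trTg mice on a SpdefKO background (SpdefKO_GC, libraries 3, 5, 7 and 19). The reporter transgene, carried by every mouse compared, makes goblet cells red with mCherry, and the mice were 6 to 8 weeks old. Epithelium was released with EDTA, dispersed with collagenase and stained with a viability dye, and live mCherry-positive cells were sorted against a C57Bl6 mouse without reporter. Goblet cells too pale for that gate were therefore not covered. The mCherry-negative epithelial cells (EC) of both genotypes, 4 libraries each (WT_EC and SpdefKO_EC), were used for the estimate of spread and as a reference.

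Goblet cells make the mucus of the gut. They fold very large mucin chains in the endoplasmic reticulum (ER), decorate them with O-linked sugars in the Golgi apparatus, pack them into granules and release them by exocytosis. SPDEF is a transcription factor of the ETS family, known for driving the late maturation of goblet cells, and its family binds DNA around a GGA core, SPDEF itself with a preference for GGAT. Enteroendocrine cells, which release hormones, come from the same secretory precursors as goblet cells.

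Levels are CPM, the reads of a gene per 1000000 reads assigned to the tested genes, with the total of each library scaled by its TMM factor. They are given as mean ± SD over the 4 libraries of a group, and values per library follow the order of the library numbers above. They can be compared between libraries for 1 gene but not between genes, since they are not divided by transcript length. The 8 GC libraries held 10969888 to 17111987 gene counts. The 11 goblet cell markers (Muc2, Fcgbp, Tff3 and others) summed to 57437, 51075, 58407 and 55524 CPM in WT_GC, 56661, 67708, 55098 and 66131 CPM in SpdefKO_GC, and 1179.9 to 1463 CPM in WT_EC, so both sorted fractions carried the label's cell type. Spdef itself was at 280.0, 306, 281 and 315 CPM in WT_GC and at 369, 373, 446 and 294 CPM in SpdefKO_GC, so its count was not reduced (log2 change 0.33 ± 0.14, adjusted p = 0.116), and it passed as higher without SpdefKO_GC 19, with only the GC libraries and with limma-voom (adjusted p = 0.0439 to 0.0499). A whole-gene count does not tell which part an allele removes, so genotype rests on the labels, and SpdefKO_GC means libraries labelled SpdefKO_GC throughout.

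In SpdefKO_GC a small group of genes was almost completely lost, while most of the goblet cell transcriptome was kept. Of 21442 genes, 12915 had enough counts to be tested with edgeR. A gene is said to have risen or fallen when its Benjamini-Hochberg adjusted p was under 0.05, which held for 10.4% of tested genes in the upward and 11% in the downward direction (21.4% together). Changes of at least 2-fold made up 2.14% upward and 1.42% downward. A gene is said to be kept when it did not pass that test and the 95% interval of its log2 difference (limma-voom) lay wholly within a 1.5-fold difference either way, and this held for 57.2%. The remaining 2769 genes were neither called nor shown to be kept. Over all tested genes the median log2 difference was 0.0014.

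Gains of at least 2-fold lay mostly at low levels, and losses of that size were spread more widely, though most were also under 20 CPM. Among the 2173 genes at 100 CPM or more in WT_GC, 26 fell at least 2-fold, 2 rose at least 2-fold, and for 86.8% the interval lay within 1.5-fold. Those 2 were Guca2a and Muc4, named after their values were seen. Choosing genes by the WT_GC level leaves out those that rose to 100 CPM from below. By the higher group mean, 2343 genes were at 100 CPM or more, of which 26 fell and 7 rose at least 2-fold. Among the 1699 genes whose higher group mean was 1 to 5 CPM, 136 rose and 58 fell at least 2-fold, and among the 2846 genes at 5 to 20 CPM 56 rose and 62 fell. Fewer cells of a type in a fraction and less RNA per cell cannot be told apart in such sorted bulk samples.

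**Figure D1:**
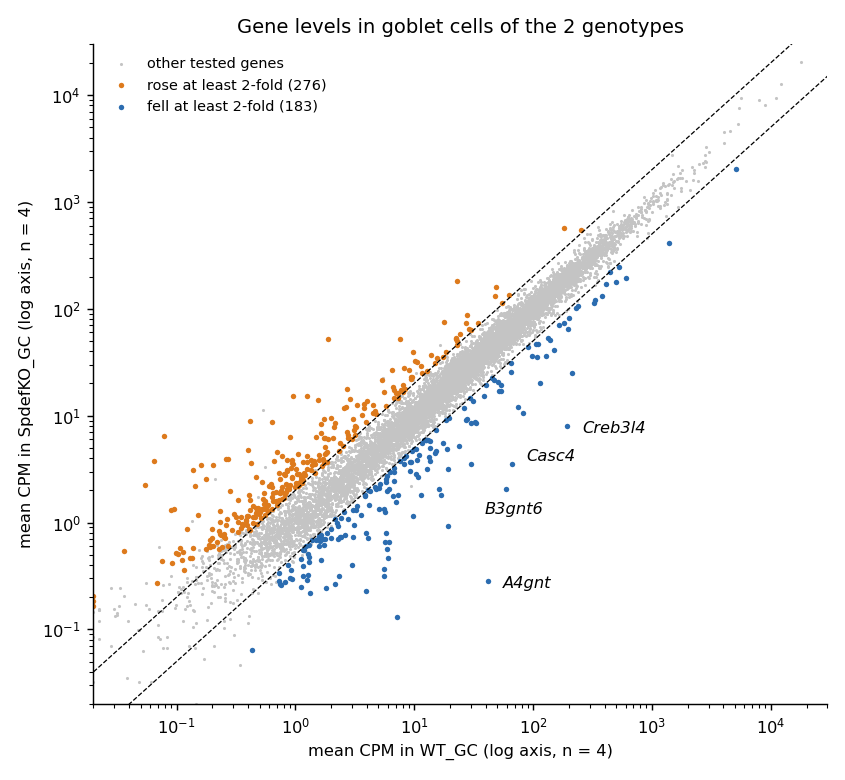
Mean level of each tested gene in WT_GC (horizontal, CPM, log axis) and SpdefKO_GC (vertical, CPM, log axis), 4 libraries per group. Grey points are all other tested genes, orange points the 276 genes that rose and blue points the 183 that fell at least 2-fold, the dashed lines mark a 2-fold difference, and means under 0.02 CPM are drawn at 0.02. A4gnt, B3gnt6, Casc4 and Creb3l4 lie far below the diagonal, and most of the orange points lie at low levels.

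Of the genes that mark this loss, A4gnt, the enzyme that caps mucin sugars with alpha-linked N-acetylglucosamine, was at 39.5, 38.8, 42.6 and 46.9 CPM in WT_GC. In SpdefKO_GC it was at 0.287, 0.417, 0.353 and 0.0711 CPM, 144-fold lower (log2 change -7.17 ± 0.23, adjusted p = 9.43e-12). B3gnt6, the synthase of the core 3 structure typical of colonic mucin, was at 51.8, 61.5, 56.4 and 65.9 CPM in WT_GC and at 1.95, 2.36, 2.05 and 1.92 CPM in SpdefKO_GC (log2 change -4.83 ± 0.14, adjusted p = 4.21e-14). Every SpdefKO_GC library was far below every WT_GC library for both. Creb3l4, a membrane-anchored transcription factor of the secretory pathway, was at 199, 191, 205 and 183 CPM and then 8.49, 9.25, 6.86 and 7.32 CPM (log2 change -4.60 ± 0.19, adjusted p = 3.12e-11). Casc4 (now Golm2), a Golgi membrane protein, was at 66.4, 57.8, 61.7 and 80.2 CPM and then 3.56, 3.62, 3.25 and 3.63 CPM (log2 change -4.24 ± 0.15, adjusted p = 1.61e-12). In the mCherry-negative epithelium B3gnt6 was at 1.29 ± 0.323 CPM in WT_EC and 1.20 ± 0.212 CPM in SpdefKO_EC, Casc4 at 2.49 ± 0.554 CPM in WT_EC and 2.13 ± 0.570 CPM in SpdefKO_EC and Creb3l4 at 4.54 ± 1.76 CPM in WT_EC and 2.87 ± 1.12 CPM in SpdefKO_EC. None of these 4 genes passed the test between SpdefKO_EC and WT_EC (adjusted p = 0.0544 to 0.813). The difference between genotypes in GC, less that in EC, was log2 -4.72 ± 0.27, adjusted p = 7.26e-09 for B3gnt6, log2 -4.01 ± 0.26, adjusted p = 3.04e-08 for Casc4 and log2 -3.87 ± 0.32, adjusted p = 1.92e-06 for Creb3l4. For A4gnt that test has no usable error, since SpdefKO_EC held no A4gnt read.

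The 250 bases before the annotated start of 3 of these genes are shown because a factor that activates a gene directly often binds there. They are from RefSeq on GRCm38, printed 5′ to 3′ on the gene's strand, with matches on either strand to the motif CCGGAT, the motif CCGGAA or the motif GAAACT in capitals. The first 2 are ETS family sites and the third is part of the element bound by interferon response factors. A4gnt is at chr9:99612252-99612501 (plus strand), Creb3l4 at chr3:90243513-90243762 (minus strand) and Casc4 at chr2:121866720-121866969 (plus strand).
A4gnt: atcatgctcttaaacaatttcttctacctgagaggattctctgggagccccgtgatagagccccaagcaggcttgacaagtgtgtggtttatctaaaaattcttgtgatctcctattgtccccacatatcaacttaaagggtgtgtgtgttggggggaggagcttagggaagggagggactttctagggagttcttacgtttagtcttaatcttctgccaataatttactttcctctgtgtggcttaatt
Creb3l4: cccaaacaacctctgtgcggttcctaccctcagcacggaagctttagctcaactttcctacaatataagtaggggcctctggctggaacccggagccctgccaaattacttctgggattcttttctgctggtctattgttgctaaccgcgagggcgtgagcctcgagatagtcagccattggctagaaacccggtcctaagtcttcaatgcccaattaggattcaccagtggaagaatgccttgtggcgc
Casc4: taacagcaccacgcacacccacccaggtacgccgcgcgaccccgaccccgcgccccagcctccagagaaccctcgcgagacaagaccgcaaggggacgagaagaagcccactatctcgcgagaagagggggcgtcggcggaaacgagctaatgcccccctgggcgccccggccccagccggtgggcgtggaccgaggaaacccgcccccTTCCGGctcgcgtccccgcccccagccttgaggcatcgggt
The Casc4 stretch held 1 match, CCGGAA on the reverse strand, and the A4gnt and Creb3l4 stretches held none of the 3 motifs. Both of the latter do hold the shorter run GGAT, which was not marked or counted over all genes. Over the 10251 tested genes with a RefSeq promoter, 8.07% held CCGGAT, 22.5% CCGGAA and 12.2% GAAACT. Among the 139 genes with a promoter that fell at least 2-fold, 7.19% held CCGGAT and 14.4% CCGGAA, and among the 5995 kept genes 8.62% and 26.1%. A match is a run of letters and not a measured binding site.

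The rule for naming genes (the 15 smallest p-values in each direction among changes of at least 2-fold) added 11 further losses. Slc41a2, a magnesium transporter, fell from 74.0 ± 3.48 CPM to 12.1 ± 0.637 CPM (log2 change -2.61 ± 0.10, adjusted p = 5.13e-12), against 13.7 ± 0.644 CPM in WT_EC and 11.4 ± 2.17 CPM in SpdefKO_EC. Tpsg1, a membrane-bound tryptase, fell from 115 ± 10.1 CPM to 20.2 ± 2.02 CPM (log2 change -2.51 ± 0.10, adjusted p = 7.01e-12). It shares 158 exonic bases on the opposite strand with Cacna1h, a T-type calcium channel gene that fell from 18.7 ± 1.89 CPM to 4.89 ± 1.20 CPM, and the strand setting of the counting is not known, so their reads cannot be told apart there. Rap1gap, which switches off the small GTPase Rap1, fell from 379 ± 9.30 CPM to 131 ± 10.6 CPM (log2 change -1.53 ± 0.078, adjusted p = 1.58e-10), with WT_GC libraries at 380.3, 388, 382 and 366 CPM and SpdefKO_GC libraries at 119, 141, 139 and 125 CPM. B3galt2, a galactosyltransferase, fell from 81.6 ± 7.36 CPM to 10.6 ± 1.99 CPM (log2 change -2.95 ± 0.16, adjusted p = 5.51e-10). Dlk1, a non-canonical Notch ligand, fell from 19.1 ± 4.36 CPM to 0.928 ± 0.295 CPM (log2 change -4.32 ± 0.27, adjusted p = 3.3e-09). Mt3, a metallothionein, fell from 7.23 ± 0.147 CPM to 0.131 ± 0.0706 CPM (log2 change -5.67 ± 0.26, adjusted p = 8.35e-10). The other 5 were Tpd52l1 at 9.43-fold, Klhdc8a at 4.59-fold, Guk1 (guanylate kinase) at 2.70-fold, Yipf1 (a Golgi membrane protein) at 2.43-fold and 9030619P08Rik at 8.497-fold lower. In all 15 the ranges of the groups did not overlap, which the rule required and which held for 25.1% of all tested genes.

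**Figure D2:**
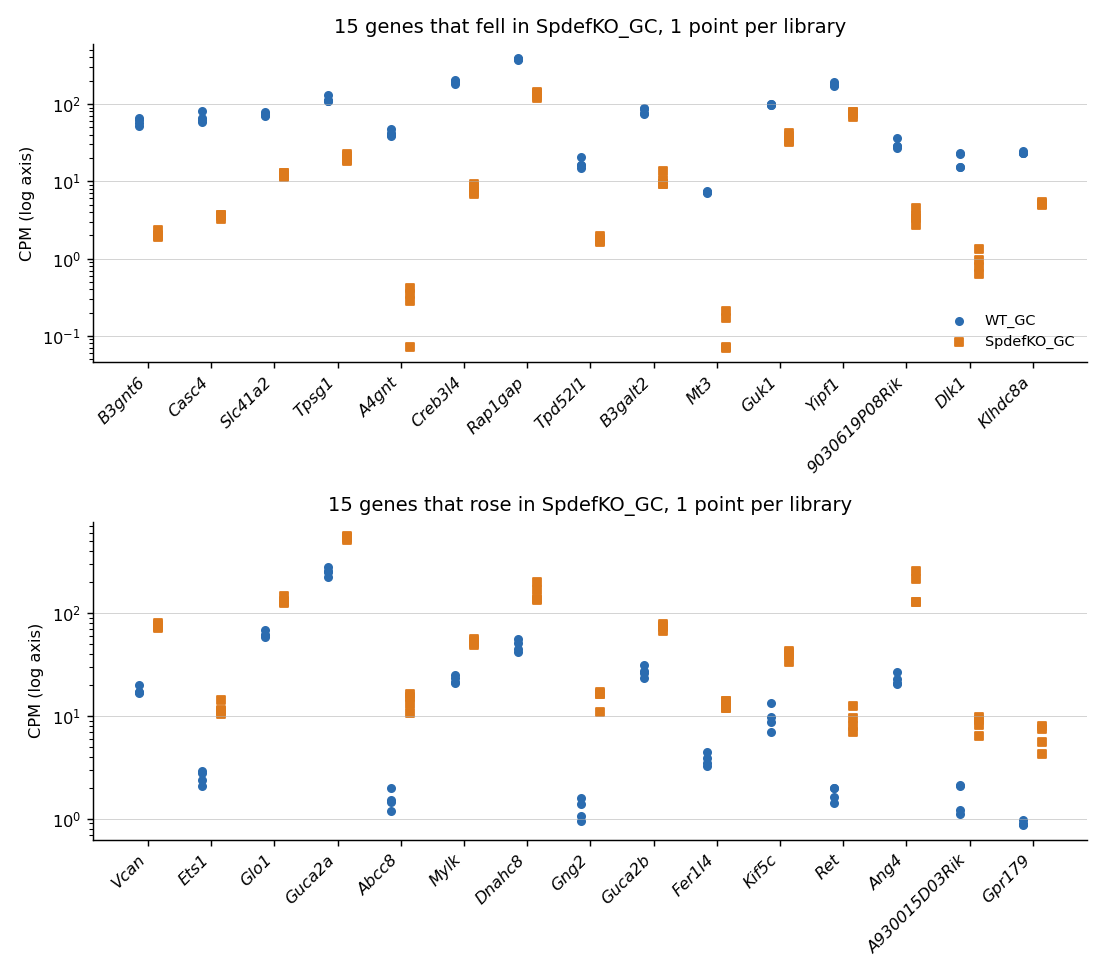
Level per library (CPM, log axis) of the 15 genes with the smallest p-values among those that fell (upper panel) and rose (lower panel) at least 2-fold. Blue circles are the 4 WT_GC libraries and orange squares the 4 SpdefKO_GC libraries. The groups are separated for every gene, as the naming rule required, and A4gnt shows the widest gap, with WT_GC at 38.8 CPM or more and SpdefKO_GC at 0.417 CPM or less.

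Among the enzymes that build mucin O-glycans, members of the first step, the core and the chain ends fell, while the core 1 enzymes were kept. Of the GALNT enzymes, which attach the first N-acetylgalactosamine, 0 of 11 tested members rose, 7 fell and 3 were kept (median log2 -0.39). Galnt12 fell from 327 ± 26.9 CPM to 112 ± 2.68 CPM (log2 change -1.54 ± 0.11, adjusted p = 2.32e-08), Galnt10 from 499 ± 7.76 CPM to 341 ± 26.2 CPM (log2 change -0.55 ± 0.068, adjusted p = 1.37e-05) and Galnt11 from 19.98 ± 1.37 CPM to 13.9 ± 0.714 CPM, whereas Galnt4, Galnt1 and Galnt5 were kept (log2 -0.066, 95% interval -0.27 to 0.14 for Galnt5). Of the enzymes of core synthesis and chain extension, 1 of 22 tested members rose, 6 fell and 11 were kept (median log2 -0.076). C1galt1, the core 1 synthase, was at 392 ± 14.004 CPM in WT_GC and at 407 ± 18.8 CPM in SpdefKO_GC (log2 0.054, 95% interval -0.11 to 0.22), and its chaperone C1galt1c1 and the extension enzyme B3gnt3 were kept too. B4galt6 was the only one to rise (log2 change 0.37 ± 0.11, adjusted p = 0.0218), a call lost without WT_GC 13 or SpdefKO_GC 19 (adjusted p = 0.0569 to 0.0784).

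At the chain ends, of the fucose, sialic acid and Sda antigen enzymes 3 of 23 tested members rose, 10 fell and 7 were kept. B4galnt2, which makes the Sda antigen of the distal colon, was at 212, 248, 262 and 220.4 CPM in WT_GC and at 119, 114, 125 and 115 CPM in SpdefKO_GC (log2 change -0.9959 ± 0.088, adjusted p = 2.01e-07). Cmas, which activates sialic acid, fell from 331 ± 3.73 CPM to 216 ± 18.4 CPM (log2 change -0.62 ± 0.073, adjusted p = 8.46e-06) and Casd1, which O-acetylates it, from 187 ± 9.04 CPM to 137 ± 4.06 CPM (log2 change -0.45 ± 0.080, adjusted p = 0.000588). B4galnt1, a ganglioside enzyme, rose from 38.8 ± 4.63 CPM to 60.5 ± 4.63 CPM (log2 change 0.64 ± 0.089, adjusted p = 5.14e-05). The count of risen members was 1 without WT_GC 9 or SpdefKO_GC 5. Of the genes that make and carry activated sugars, 9 of 20 tested members fell, 2 rose and 9 were kept (median log2 -0.18), and 1 rose without WT_GC 11 or 13 or SpdefKO_GC 3, 7 or 19 and with no low-count filter. Gfpt1, the entry enzyme of the hexosamine pathway, was at 2098, 2166, 1979 and 2184 CPM in WT_GC and at 1262, 1273, 1349 and 1273 CPM in SpdefKO_GC (log2 change -0.71 ± 0.078, adjusted p = 3.14e-06). Tsta3, the last enzyme of GDP-fucose synthesis, fell from 188 ± 9.04 CPM to 95.7 ± 5.43 CPM (log2 change -0.98 ± 0.065, adjusted p = 6.89e-09) and Pmm2, which makes mannose-1-phosphate, from 299 ± 7.07 CPM to 206 ± 12.1 CPM. Of the sulfation genes 2 of 15 tested members rose, 2 fell and 7 were kept, and 1 rose without WT_GC 9, 11 or 13 or SpdefKO_GC 3 or 19, with no low-count filter and with only the GC libraries. Papss2, which makes the sulfate donor, rose from 313 ± 28.4 CPM to 451 ± 29.6 CPM (log2 change 0.53 ± 0.069, adjusted p = 2.45e-05). Chst4, a sulfotransferase of N-acetylglucosamine, fell from 196 ± 14.9 CPM to 138 ± 5.35 CPM (log2 change -0.51 ± 0.13, adjusted p = 0.0111). Of the N-glycosylation genes 22 of 32 were kept and 8 were lower, against 57.2% kept and 11% lower of all tested genes. Of those lower ones Tusc3, an oligosaccharyltransferase subunit, fell from 25.7 ± 1.18 CPM to 17.4 ± 0.659 CPM (log2 change -0.56 ± 0.080, adjusted p = 6.12e-05). The count of fallen N-glycosylation genes was 1 without WT_GC 13, 2 without WT_GC 11 or 18 or SpdefKO_GC 7 or 19, 3 without WT_GC 9 and 4 without SpdefKO_GC 5.

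Most genes of the machinery that folds and moves secretory proteins were kept, with a few marked exceptions. Of all tested genes 57.2% were kept, 11% fell and 10.4% rose, a reference not matched for level. Called or not, the interval lay within 1.5-fold for 82.2% of genes at 20 to 100 CPM in the higher group. It did so for 85.2% at 100 CPM or more, and for 26 of 32 folding, 21 of 23 degradation, 24 of 26 translocation and 43 of 50 coat genes. Of the ER folding genes 1 of 32 tested members rose, 4 fell and 25 were kept, of the genes of ER-associated degradation 1 of 23 tested members rose, 4 fell and 17 were kept, and of the genes of translocation into the ER 2 of 26 tested members rose, 4 fell and 19 were kept. P4hb and Pdia3, disulfide isomerases, were kept (log2 0.16, 95% interval 0.0047 to 0.31 for P4hb and log2 -0.12, 95% interval -0.27 to 0.039 for Pdia3), as were Os9, Sec63 and Sec11a. Txndc11, a thioredoxin-domain protein of the ER, fell from 107 ± 7.78 CPM to 60.5 ± 7.45 CPM (log2 change -0.83 ± 0.10, adjusted p = 8.93e-06). Txndc12 fell from 62.6 ± 5.22 CPM to 42.3 ± 3.69 CPM (log2 change -0.57 ± 0.092, adjusted p = 0.000246). The fallen counts moved when a library was left out, to 2 without WT_GC 13 or 18 or SpdefKO_GC 5 for folding, 2 without WT_GC 9, 11 or 18 or SpdefKO_GC 5 for degradation and 0 without WT_GC 13 or SpdefKO_GC 5, 1 without WT_GC 11 or 18 or SpdefKO_GC 19 and 2 without WT_GC 9 or SpdefKO_GC 3 for translocation. The risen counts were 0 without WT_GC 11, 13 or 18 or SpdefKO_GC 3 or 7 for degradation and 1 without WT_GC 9 or 13 or SpdefKO_GC 5, with no low-count filter and with only the GC libraries for translocation. Hsp90b1, the ER form of the chaperone HSP90, was the folding gene that rose (log2 change 0.37 ± 0.13, adjusted p = 0.0469), a call lost without WT_GC 11, 13 or 18 or SpdefKO_GC 3, 7 or 19, with upper-quartile factors and with no low-count filter (adjusted p = 0.0507 to 0.13).

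Among ER stress sensors and membrane-anchored transcription factors, the 2 forms of IRE1 moved apart. Ern2, the form found in mucous epithelia, fell from 427 ± 17.4 CPM to 243 ± 30.7 CPM (log2 change -0.81 ± 0.086, adjusted p = 2.21e-06), with the 4 WT_GC libraries at 434, 416, 409 and 447 CPM and the 4 SpdefKO_GC libraries at 223, 287, 221 and 243 CPM. Ern1, the widespread form, rose from 71.5 ± 4.82 CPM to 96.7 ± 16.4 CPM (log2 change 0.44 ± 0.10, adjusted p = 0.00537). Xbp1, the transcription factor downstream of IRE1, was kept (log2 change -0.15 ± 0.074, adjusted p = 0.151), as were Atf6 and Mbtps1. Next to the loss of Creb3l4, its relative Creb3 fell from 64.1 ± 3.03 CPM to 50.4 ± 2.26 CPM (log2 change -0.35 ± 0.075, adjusted p = 0.00289). Creb3l1 rose from 178 ± 13.1 CPM to 225 ± 38.5 CPM (log2 change 0.34 ± 0.12, adjusted p = 0.0461). The Creb3l1 call was lost without WT_GC 9, 11, 13 or 18 or SpdefKO_GC 5 or 7, with upper-quartile factors and with no low-count filter (adjusted p = 0.0537 to 0.158).

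Between ER and Golgi, of the coat and cargo receptor genes 3 of 50 tested members rose, 11 fell and 33 were kept. Sec16a, the scaffold of ER exit sites, was at 425, 419.9, 386 and 411 CPM in WT_GC and at 258, 282, 287 and 257 CPM in SpdefKO_GC (log2 change -0.60 ± 0.057, adjusted p = 5.85e-07). Preb, the activator of the COPII GTPase Sar1, fell from 112 ± 3.82 CPM to 73.8 ± 11.5 CPM (log2 change -0.60 ± 0.092, adjusted p = 0.000144) and Copb1, a COPI subunit, from 408 ± 14.3 CPM to 337 ± 10.6 CPM, whereas Copa and Copg1 of the same coat were kept. The fallen count was 5 without SpdefKO_GC 5 or 19 and 6 without WT_GC 18, and the risen count was 1 without WT_GC 13. Of the Golgi structure and membrane genes 1 of 47 tested members rose, 16 fell and 29 were kept, and 2 rose without WT_GC 11 or SpdefKO_GC 3, 5 or 7 and with DESeq2. Beside Casc4 and Yipf1, Tmf1, a Golgi tether, fell from 324 ± 17.3 CPM to 199 ± 9.92 CPM (log2 change -0.71 ± 0.075, adjusted p = 2.19e-06). Golm1, the relative of Casc4, was kept at 2165 ± 64.9 CPM and 2142 ± 36.8 CPM (log2 -0.015, 95% interval -0.14 to 0.11). Of the exocytosis genes 7 of 40 tested members rose, 6 fell and 21 were kept. Rab3d, a GTPase of secretory granules, fell from 427 ± 13.5 CPM to 301 ± 17.8 CPM (log2 change -0.50 ± 0.075, adjusted p = 0.000108). Myrip, which links granules to myosin, fell from 8.34 ± 1.51 CPM to 4.41 ± 1.143 CPM (log2 change -0.91 ± 0.20, adjusted p = 0.00315). Unc13d, a priming factor of granule fusion, rose from 7.26 ± 1.12 CPM to 16.1 ± 2.10 CPM (log2 change 1.15 ± 0.12, adjusted p = 1.97e-06).

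**Figure D3:**
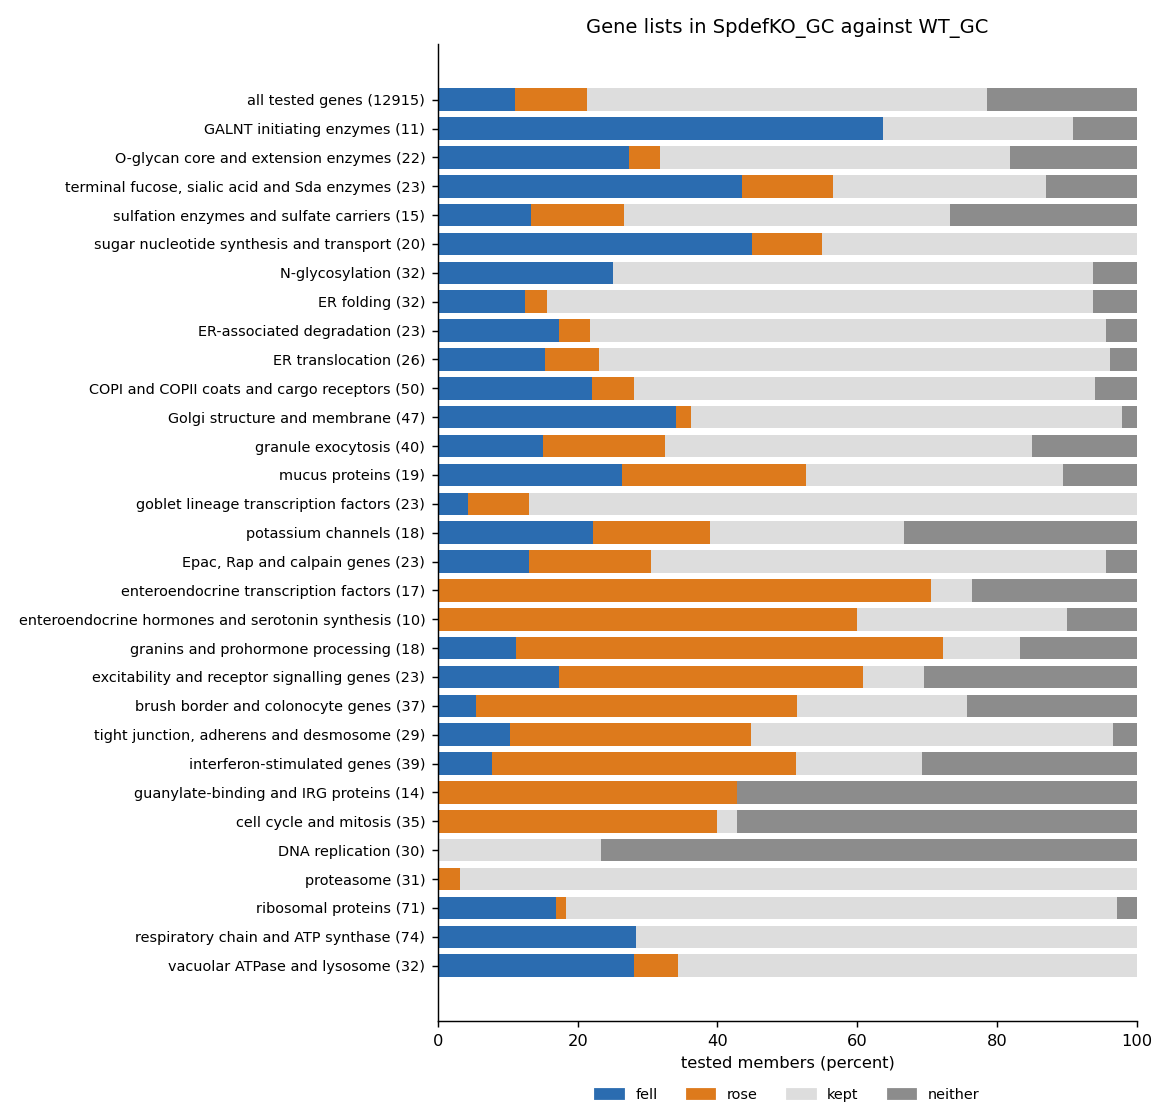
Number of tested members of each of 30 gene lists that fell (blue), rose (orange), were kept within 1.5-fold and not called (light grey) or were neither called nor shown to be kept (dark grey) in SpdefKO_GC against WT_GC, as shares of the tested members (percent), with the number tested after each name. The top bar gives all tested genes, of which 11% fell, 10.4% rose and 57.2% were kept.

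The secreted products themselves split. Of the mucus proteins 5 of 19 tested members rose, 5 fell and 7 were kept (median log2 0.011). The main mucin Muc2 was at 12209, 12009, 11237 and 12893 CPM in WT_GC and at 10810.0, 14810.0, 12682 and 11900.0 CPM in SpdefKO_GC (log2 0.046, 95% interval -0.24 to 0.33), and the ranges overlapped. The mucus proteins Fcgbp and Dmbt1 and the bacteria-binding Lypd8 were kept as well. Ccl6, a chemokine, fell from 1403 ± 193 CPM to 412 ± 38.7 CPM (log2 change -1.77 ± 0.14, adjusted p = 1.36e-07), Spink3, a trypsin inhibitor, from 411 ± 46.8 CPM to 170.1 ± 34.7 CPM (log2 change -1.27 ± 0.11, adjusted p = 1.36e-07) and Klk1, a kallikrein protease, from 2462 ± 169 CPM to 1556 ± 122 CPM (log2 change -0.66 ± 0.094, adjusted p = 6.5e-05). Tff3, a trefoil peptide, was at 1507, 1211, 1672 and 1528 CPM in WT_GC and at 2584, 2397, 2585 and 3317 CPM in SpdefKO_GC (log2 change 0.88 ± 0.12, adjusted p = 2.59e-05). Ang4, a bactericidal ribonuclease, rose from 22.7 ± 2.93 CPM to 182 ± 64.7 CPM (log2 change 3.01 ± 0.23, adjusted p = 2.06e-07), with SpdefKO_GC libraries at 216, 257, 129 and 127 CPM, but its reads may be shared with near-identical relatives. The counts of this list were 3 without WT_GC 11 or 18 for risen and 3 without WT_GC 9, 13 or 18 or SpdefKO_GC 3, 5 or 7 for fallen members.

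Of the membrane mucins, Muc1 fell from 19.3 ± 4.35 CPM to 3.17 ± 0.758 CPM (log2 change -2.59 ± 0.18, adjusted p = 9.01e-09), with SpdefKO_GC libraries at 3.79, 2.29, 3.82 and 2.77 CPM. Muc4 rose from 184 ± 25.8 CPM to 573 ± 161 CPM (log2 change 1.64 ± 0.20, adjusted p = 2.85e-05), with WT_GC libraries at 181, 203, 148 and 203 CPM and SpdefKO_GC libraries at 412, 769, 474 and 638 CPM. Muc13 was kept (log2 0.026, 95% interval -0.18 to 0.24). Muc20, at 0.490 ± 0.0960 CPM and 1.01 ± 0.258 CPM, did not pass (log2 change 1.03 ± 0.36, adjusted p = 0.0503), although it passed with only the GC libraries (adjusted p = 0.0277), and it overlaps Muc4 on the opposite strand. Cd164 and Epcam, membrane glycoproteins that are not MUC genes, were counted with them. Cd164 fell from 515 ± 20.5 CPM to 426 ± 7.39 CPM (log2 change -0.27 ± 0.061, adjusted p = 0.00391). Epcam fell from 1529 ± 57.8 CPM to 1349 ± 66.9 CPM (log2 change -0.18 ± 0.062, adjusted p = 0.0452). The Epcam call was lost without WT_GC 11, 13 or 18 or SpdefKO_GC 3, 5, 7 or 19, with no low-count filter and with only the GC libraries (adjusted p = 0.0599 to 0.165).

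Markers of secretory cells deep in the crypt moved both ways, and their sum was lower. The 13 markers of deep crypt secretory and Paneth cells with counts summed to 11153, 8902, 14060.0 and 10895 CPM in WT_GC and at 5857, 7144, 6476 and 6867 CPM in SpdefKO_GC, without overlap. Of these 4 of 12 tested members fell, 2 rose and 4 were kept, and Mptx1 carried most of the difference in the sum. Mptx1, a mucosal pentraxin, was at 5185, 3171, 7134 and 4965 CPM in WT_GC and at 1379, 2369, 2033 and 2281 CPM in SpdefKO_GC (log2 change -1.34 ± 0.26, adjusted p = 0.00238). Reg4, a lectin of deep crypt secretory cells, fell from 1648 ± 379 CPM to 904 ± 99.0 CPM (log2 change -0.87 ± 0.22, adjusted p = 0.0121). Nupr1, a stress-induced nuclear protein, fell from 499 ± 75.6 CPM to 178 ± 24.05 CPM (log2 change -1.49 ± 0.20, adjusted p = 9.06e-05). The markers Kit and Cd24a were kept (log2 -0.11, 95% interval -0.36 to 0.14 for Kit and log2 -0.053, 95% interval -0.29 to 0.18 for Cd24a). Mmp7, a Paneth cell protease, rose from 0.696 ± 0.105 CPM to 4.57 ± 0.718 CPM (log2 change 2.70 ± 0.27, adjusted p = 1.16e-06). Dll1, a Notch ligand of secretory precursors, rose from 74.6 ± 7.61 CPM to 133 ± 15.96 CPM (log2 change 0.84 ± 0.093, adjusted p = 3.72e-06). Of the stem and crypt base markers 5 of 18 tested members fell, 2 rose and 6 were kept, and their sum was 2386 to 2584 CPM in WT_GC and at 1677 to 1927 CPM in SpdefKO_GC. Slc12a2 carried most of that difference. The fallen count of this list was 1 without WT_GC 11 or SpdefKO_GC 19, 2 without WT_GC 18 and 3 without SpdefKO_GC 3 or 7, and the risen count was 1 without WT_GC 9 or 13 or SpdefKO_GC 7.

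Ion and fluid handling changed at single genes. Slc12a2, the sodium-potassium-chloride cotransporter that feeds chloride secretion, was at 1290.0, 1168, 1539.9 and 1259 CPM in WT_GC and at 684, 747, 736 and 797 CPM in SpdefKO_GC (log2 change -0.83 ± 0.090, adjusted p = 2.7e-06). Car2, carbonic anhydrase 2, fell from 444 ± 14.4 CPM to 268 ± 35.5 CPM (log2 change -0.73 ± 0.090, adjusted p = 1.25e-05), whereas the chloride channel Ano1 and the exchanger Clcn3 were kept. Of the potassium channel genes 3 of 18 tested members rose, 4 fell and 5 were kept. Kcnk6, a 2-pore potassium channel, was at 143, 149.8, 163 and 146 CPM and then 47.2, 36.3, 44.6 and 36.7 CPM (log2 change -1.87 ± 0.14, adjusted p = 2.47e-08). Kcne2, an accessory subunit, fell from 5.54 ± 1.85 CPM to 0.366 ± 0.250 CPM (log2 change -3.92 ± 0.40, adjusted p = 1.38e-06). Slc9a3, the sodium-proton exchanger of absorptive cells, rose from 3.98 ± 0.954 CPM to 13.7 ± 2.69 CPM (log2 change 1.79 ± 0.21, adjusted p = 9.89e-06). In the guanylate cyclase-C pathway, which couples the peptides guanylin and uroguanylin to cGMP, the ligands rose and other parts fell. Guca2a (guanylin) was at 252, 226, 280.4 and 260.2 CPM in WT_GC and at 566, 520.3, 539 and 556 CPM in SpdefKO_GC (log2 change 1.10 ± 0.079, adjusted p = 1.64e-08). Guca2b (uroguanylin) rose from 27.3 ± 3.38 CPM to 73.8 ± 4.76 CPM (log2 change 1.43 ± 0.12, adjusted p = 6.52e-08). The receptor Gucy2c fell from 355 ± 13.5 CPM to 279 ± 8.96 CPM (log2 change -0.35 ± 0.054, adjusted p = 0.00015) and the cGMP phosphodiesterase Pde2a from 446 ± 16.5 CPM to 265 ± 20.3 CPM (log2 change -0.75 ± 0.12, adjusted p = 0.00017). Pde5a was kept and Prkg2, a cGMP-dependent kinase, did not pass (log2 change -0.55 ± 0.23, adjusted p = 0.0967). Prkg2 passed as lower without WT_GC 13 or SpdefKO_GC 7 (adjusted p = 0.0433 to 0.047). Guca2a was at 1228 ± 89.5 CPM in WT_EC and 1039 ± 86.2 CPM in SpdefKO_EC, and the genotype difference in GC differed from that in EC (log2 1.34 ± 0.11, adjusted p = 1.1e-06).

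In cAMP signalling through Epac and Rap, Rap1gap fell as described and Rapgef3, which encodes Epac1, fell from 89.7 ± 3.35 CPM to 61.2 ± 4.82 CPM (log2 change -0.55 ± 0.071, adjusted p = 1.93e-05). Rapgef2 rose from 44.7 ± 7.34 CPM to 64.3 ± 5.84 CPM (log2 change 0.53 ± 0.14, adjusted p = 0.0125). Of the calpains, calcium-dependent proteases, the small subunit Capns1 fell from 237 ± 17.99 CPM to 142 ± 13.9 CPM (log2 change -0.73 ± 0.090, adjusted p = 1.19e-05). Capn9, a gut form, rose from 104 ± 11.99 CPM to 147 ± 16.8 CPM (log2 change 0.50 ± 0.10, adjusted p = 0.0011). Over that list 4 of 23 tested members rose, 3 fell and 15 were kept. Of the imprinted genes, which are transcribed from 1 parental copy, Dlk1 and its neighbours Rian and Meg3 in the Dlk1-Dio3 cluster fell. Rian was at 186, 198, 201 and 206 CPM in WT_GC and at 79.1, 55.6, 75.8 and 47.3 CPM in SpdefKO_GC (log2 change -1.62 ± 0.13, adjusted p = 1.27e-07). Meg3 fell from 110.1 ± 8.46 CPM to 46.6 ± 6.18 CPM (log2 change -1.24 ± 0.12, adjusted p = 3.98e-07). Of the metallothioneins Mt1 (log2 change 0.34 ± 0.25, adjusted p = 0.36) and Mt2 (log2 change 1.27 ± 0.48, adjusted p = 0.075) did not pass beside the loss of Mt3, and Mt2 passed as higher without SpdefKO_GC 7, with only the GC libraries and with DESeq2 (adjusted p = 0.0151 to 0.0454).

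Of the lineage transcription factors of goblet cells 2 of 23 tested members rose, 1 fell and 20 were kept, Cdx1 and Hnf4a among them. The kept members include Spdef itself, whose count does not tell which part the allele removes. The risen count was 5 with limma-voom or with only the GC libraries and 4 with DESeq2. It was 1 without WT_GC 11 or 13 or SpdefKO_GC 5, with upper-quartile factors and with no low-count filter. Foxa3 fell from 159 ± 6.44 CPM to 91.0 ± 5.72 CPM (log2 change -0.81 ± 0.12, adjusted p = 0.000104), with WT_GC libraries at 160.4, 159, 151 and 167 CPM and SpdefKO_GC libraries at 94.9, 91.9, 94.7 and 82.7 CPM. Foxa2 rose from 73.3 ± 2.66 CPM to 94.3 ± 12.6 CPM (log2 change 0.36 ± 0.091, adjusted p = 0.00835). Hnf4a passed as higher with only the GC libraries, with DESeq2 and with limma-voom (adjusted p = 0.0276 to 0.0483).

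The 3 lists of hormone-cell genes held the largest shares of risen members among the 49 function lists. Of the enteroendocrine transcription factors 12 of 17 tested members rose, 0 fell and 1 was kept (median log2 1.07), of the hormone genes 6 of 10 tested members rose, 0 fell and 3 were kept (median log2 1.39), and of the granins and prohormone processing genes 11 of 18 tested members rose, 2 fell and 2 were kept (median log2 1.18). Neurog3, which starts the enteroendocrine fate, rose from 0.280 ± 0.212 CPM to 1.97 ± 0.767 CPM (log2 change 2.70 ± 0.43, adjusted p = 0.000192), and its log2 difference was 3.33 without WT_GC 11. Neurod1, which follows it, rose from 0.940 ± 0.285 CPM to 3.59 ± 0.832 CPM (log2 change 1.89 ± 0.30, adjusted p = 0.00024) and Lmx1a, a factor of serotonin cells, from 1.18 ± 0.317 CPM to 2.90 ± 0.456 CPM (log2 change 1.26 ± 0.19, adjusted p = 0.000143). Gcg, which encodes glucagon-like peptide 1, was at 9.73, 11.3, 8.64 and 10.9 CPM in WT_GC and at 25.1, 39.6, 34.0 and 30.6 CPM in SpdefKO_GC (log2 change 1.67 ± 0.18, adjusted p = 6.12e-06). Sct (secretin) rose from 2.09 ± 0.293 CPM to 7.83 ± 0.957 CPM, Tph1 (serotonin synthesis) from 5.54 ± 0.670 CPM to 16.6 ± 5.28 CPM and Chgb (secretogranin 1) from 47.4 ± 8.56 CPM to 132 ± 20.5 CPM. Ddc and Slc18a1, also of monoamine handling, were kept. The median log2 of the granin list over the WT_GC mean was 0.02, 0.83, 0.94 and 1.02 in the SpdefKO_GC libraries, so library 3 lay apart from the other 3. Without WT_GC 18, 1 granin or processing gene fell. Ptprn2, a protein of dense-core vesicles, went the other way, from 203 ± 9.46 CPM to 82.4 ± 6.51 CPM (log2 change -1.30 ± 0.10, adjusted p = 2.06e-08).

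The 12 enteroendocrine cell markers, which share members with these lists, summed to 88.5, 125, 94.6 and 98.3 CPM in WT_GC and at 208, 299, 289 and 319.8 CPM in SpdefKO_GC, and the groups did not overlap. In the mCherry-negative cells the same sum went the other way, at 559 to 756 CPM in WT_EC and 249.8 to 419.5 CPM in SpdefKO_EC. Gcg fell there from 50.2 ± 6.40 CPM to 25.2 ± 7.14 CPM and Chgb from 340.1 ± 42.6 CPM to 167 ± 26.6 CPM, and the genotype differences in GC and EC differed (log2 2.65 ± 0.25, adjusted p = 4.77e-06 for Gcg, log2 2.50 ± 0.20, adjusted p = 1.92e-06 for Chgb). A larger share of hormone cells in the mCherry-positive gate and hormone transcripts within goblet cells cannot be told apart here. The tuft cell markers, of another rare cell type, summed to 50.5 to 67.1 CPM in WT_GC and at 31.2 to 63.2 CPM in SpdefKO_GC, and none of the 13 tested passed with edgeR (1 up and 0 down at an unadjusted p under 0.05), DESeq2 or limma-voom, while 1 rose without SpdefKO_GC 19. The neuron and glia markers summed to 3.43 to 4.26 CPM in WT_GC and at 11.6 to 15.8 CPM in SpdefKO_GC, where Ret made up most of the sum, and those of fibroblasts, muscle and endothelium were at 20.1 to 25.5 and 28.5 to 32.7 CPM.

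**Figure D4:**
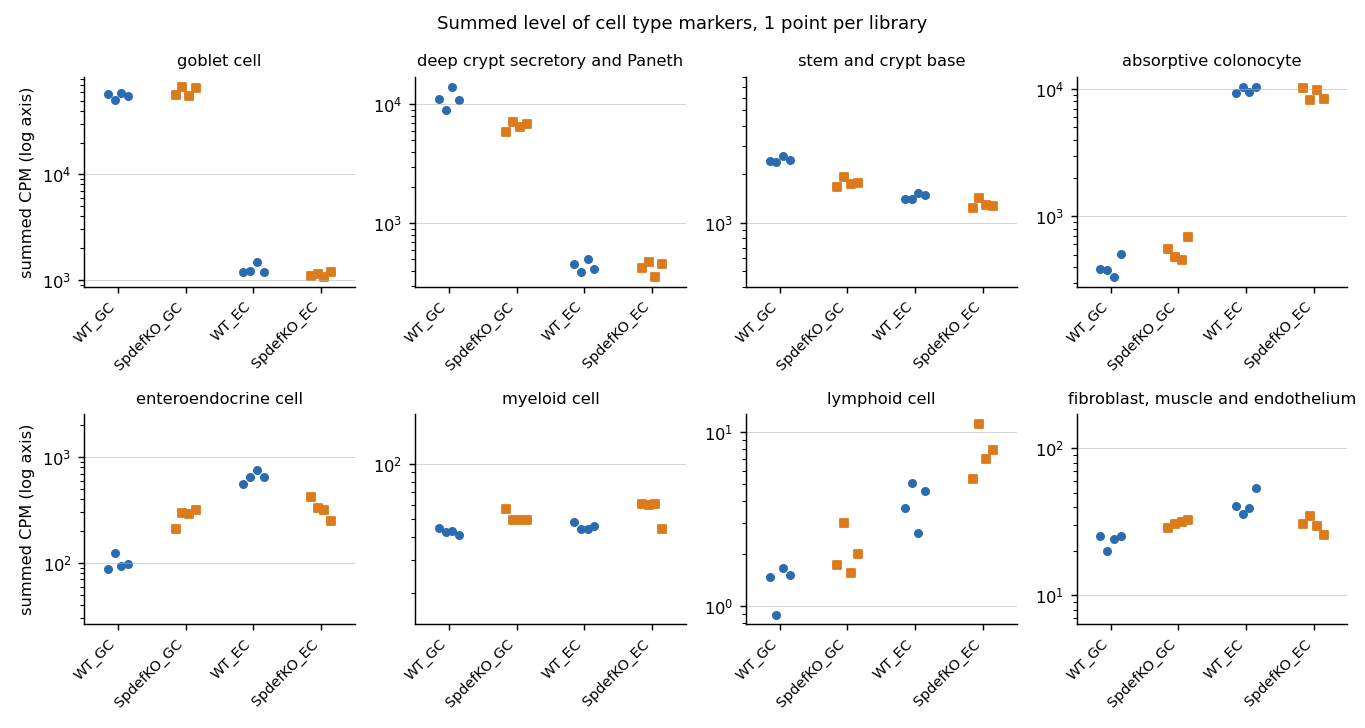
Summed level (CPM, log axis) of the defining markers of 8 cell types in each of the 16 libraries, by group, 1 point per library. Enteroendocrine markers were higher in SpdefKO_GC than in WT_GC and lower in SpdefKO_EC than in WT_EC, the goblet marker sums of the GC groups overlapped, and myeloid, lymphoid and stromal sums were at most 60.7 CPM in every library.

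Several of the other gains were signalling genes. Abcc8, the sulfonylurea receptor subunit of a potassium channel, was at 1.20, 2.01, 1.46 and 1.51 CPM in WT_GC and at 15.4, 13.2, 16.5 and 10.6 CPM in SpdefKO_GC (log2 change 3.15 ± 0.23, adjusted p = 1.85e-08). Gng2, a G protein gamma subunit, was at 1.07, 1.40, 0.953 and 1.60 CPM and then 16.3, 16.4, 17.2 and 11.02 CPM (log2 change 3.61 ± 0.29, adjusted p = 6.22e-08). Ret, a receptor tyrosine kinase, rose from 1.75 ± 0.279 CPM to 9.24 ± 2.38 CPM (log2 change 2.38 ± 0.20, adjusted p = 1.11e-07) and Kif5c, a kinesin of neurons, from 9.73 ± 2.73 CPM to 39.2 ± 4.13 CPM (log2 change 2.01 ± 0.17, adjusted p = 1.07e-07). Vcan, the matrix proteoglycan versican, rose from 17.8 ± 1.47 CPM to 75.9 ± 3.89 CPM (log2 change 2.09 ± 0.13, adjusted p = 3.61e-09), with every SpdefKO_GC library at 72.5 CPM or more. Ets1, an ETS family factor like SPDEF, rose from 2.55 ± 0.393 CPM to 11.8 ± 1.67 CPM (log2 change 2.21 ± 0.15, adjusted p = 5.65e-09) and Mylk, myosin light chain kinase, from 22.7 ± 1.85 CPM to 52.5 ± 3.24 CPM (log2 change 1.21 ± 0.091, adjusted p = 2.53e-08). Of the excitability and receptor signalling genes 10 of 23 rose, but the calcium channel gene Cacna1d fell from 5.73 ± 0.820 CPM to 1.248 ± 0.108 CPM (log2 change -2.18 ± 0.19, adjusted p = 2.08e-07) and the muscarinic receptor gene Chrm1 from 13.6 ± 1.56 CPM to 4.98 ± 0.388 CPM (log2 change -1.44 ± 0.17, adjusted p = 9.2e-06). Glo1 and Dnahc8 rose 2.13-fold and 3.29-fold and lie on chromosome 17, as Spdef does. Tpsg1, Cacna1h and the H2 genes, named in other paragraphs, lie on that chromosome too. Of the 470 tested genes within 20 Mb of Spdef, 25.5% changed, 56 upward and 64 downward, against 21.4% of all genes. Such neighbours can differ through strain background carried along with a targeted allele, which was not tested. Fer1l4, A930015D03Rik and Gpr179 complete the 15 risen genes with the smallest p-values, at 3.39-fold, 5.23-fold and 6.88-fold.

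Genes of absorptive cells rose in part. Of the brush border and colonocyte genes 17 of 37 tested members rose, 2 fell and 9 were kept, and of the 11 tested absorptive colonocyte markers 6 rose, none fell and none was kept. Krt20, a keratin of mature surface cells, was at 85.3, 74.6, 74.4 and 80.8 CPM in WT_GC and at 171, 121, 145 and 164 CPM in SpdefKO_GC (log2 change 0.93 ± 0.16, adjusted p = 0.000663). Plac8 rose from 162 ± 14.8 CPM to 265 ± 13.6 CPM (log2 change 0.71 ± 0.11, adjusted p = 0.000132). Saa1, an acute-phase protein with near-identical relatives, fell from 109 ± 23.7 CPM to 35.5 ± 6.38 CPM (log2 change -1.62 ± 0.18, adjusted p = 1.15e-05). The colonocyte markers summed to 385, 379, 332 and 502 CPM in WT_GC and at 558, 478, 449.6 and 684 CPM in SpdefKO_GC, with overlap, and to 9223 to 10426 CPM in WT_EC, and their part in the gain was not tested. The risen counts were 10 without WT_GC 13 or SpdefKO_GC 19 for the longer list and 3 without WT_GC 9, 11 or 13 or SpdefKO_GC 3 or 19 and with no low-count filter for the markers. In the longer list 1 gene fell without WT_GC 11 or 18 or SpdefKO_GC 3, 5 or 7 and with only the GC libraries, and 1 of the markers fell without WT_GC 13 and with DESeq2. Of the keratins Krt18 fell from 927 ± 89.0 CPM to 656 ± 40.4 CPM (log2 change -0.50 ± 0.095, adjusted p = 0.000999) while its partner Krt8 was kept (log2 0.19, 95% interval 0.026 to 0.36). Of the junction genes 10 of 29 tested members rose, 3 fell and 15 were kept. Cldn4 rose from 269 ± 39.5 CPM to 462 ± 88.1 CPM (log2 change 0.78 ± 0.17, adjusted p = 0.00377) and Ocln from 192 ± 26.7 CPM to 259 ± 29.5 CPM, Cldn23 fell from 96.4 ± 10.6 CPM to 70.6 ± 6.96 CPM (log2 change -0.45 ± 0.083, adjusted p = 0.000806), and Ctnnb1 and Ctnna1 were kept. The risen count of the junction list was 6 without WT_GC 9 or 13, and its fallen count 1 without WT_GC 11.

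Many interferon-response and MHC class II genes rose, unevenly over the libraries, while MHC class I genes moved both ways. Of the interferon-stimulated genes 17 of 39 tested members rose, 3 fell and 7 were kept, of the MHC class II genes 5 of 9 tested members rose, 0 fell and 2 were kept, and of the guanylate-binding and IRG proteins, which attack vacuoles of intracellular microbes, 6 of 14 tested members rose, 0 fell and 0 were kept. Without WT_GC 18 only 1 interferon-stimulated gene fell. Of the MHC class I presentation genes 7 of 22 tested members rose, 4 fell and 6 were kept. The median log2 of each SpdefKO_GC library over the WT_GC mean was 1.502, 2.38, 0.42 and 0.18 for the guanylate-binding and IRG list. Iigp1, an IRG protein, spread widely, at 1.47, 1.40, 0.699 and 3.92 CPM in WT_GC and at 66.9, 127, 11.5 and 1.78 CPM in SpdefKO_GC (log2 change 4.89 ± 1.32, adjusted p = 0.0194), and the groups overlapped. The Iigp1 call was lost without WT_GC 9, 11 or 13 or SpdefKO_GC 5, with only the GC libraries and with limma-voom (adjusted p = 0.0507 to 0.196), that of Gbp3 without WT_GC 11 or 13 or SpdefKO_GC 5, with no low-count filter and with limma-voom (adjusted p = 0.0528 to 0.0885) and that of Ifi47 without WT_GC 11, 13 or 18 or SpdefKO_GC 3 or 5, with no low-count filter and with limma-voom (adjusted p = 0.0569 to 0.14). Without SpdefKO_GC 5 the log2 difference was 3.95 for Iigp1 and 1.37 for Gbp3 (log2 2.18 with it). The count of risen guanylate-binding and IRG genes was 0 without WT_GC 11 or 13 or SpdefKO_GC 5, 2 without WT_GC 9 and 3 without WT_GC 18 or SpdefKO_GC 3, and it was 0 with limma-voom, 1 with no low-count filter and 3 with only the GC libraries. Cd74, the invariant chain of MHC class II, was at 0.933, 1.40, 0.318 and 1.16 CPM in WT_GC and at 17.8, 26.4, 12.4 and 3.98 CPM in SpdefKO_GC (log2 change 3.99 ± 0.64, adjusted p = 0.000497), without overlap. The MHC class II count was 3 without WT_GC 11 or 13 or SpdefKO_GC 3 or 5, and 3 with limma-voom. Nlrc5, the activator of MHC class I genes, was at 0.266, 0.502, 0.191 and 0.712 CPM and then 7.92, 22.8, 3.18 and 1.49 CPM (log2 change 4.43 ± 0.97, adjusted p = 0.00495), a call lost with limma-voom (adjusted p = 0.0543), and its log2 difference was 3.40 without SpdefKO_GC 5. H2-K1, a class I heavy chain, was kept (log2 0.062, 95% interval -0.081 to 0.21).

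Some members of these lists were even across libraries or fell. Oas2, a sensor enzyme of double-stranded RNA, was at 1.73, 2.62, 2.35 and 1.96 CPM in WT_GC and at 7.40, 10.7, 7.85 and 7.82 CPM in SpdefKO_GC (log2 change 1.94 ± 0.20, adjusted p = 1.74e-06), and Oas3 and Oasl1 rose from 1.86 ± 0.456 CPM to 5.98 ± 0.587 CPM and from 20.5 ± 1.247 CPM to 33.2 ± 3.56 CPM. Ifi27l1 fell from 29.3 ± 2.54 CPM to 18.4 ± 0.963 CPM (log2 change -0.67 ± 0.081, adjusted p = 1.01e-05). H2-T23, a non-classical class I gene, was at 110.2, 124, 135 and 147 CPM in WT_GC and at 31.0, 59.1, 22.98 and 31.0 CPM in SpdefKO_GC (log2 change -1.84 ± 0.26, adjusted p = 0.000154), though H2 genes share reads with near-identical relatives. H2-D1, a classical heavy chain, and Erap1, the peptide trimmer of the ER, were kept (log2 0.044, 95% interval -0.13 to 0.22 for Erap1), whereas H2-Q1 and H2-M3 fell from 4.19 ± 1.31 CPM to 1.44 ± 0.903 CPM (log2 change -1.49 ± 0.33, adjusted p = 0.00458) and from 11.98 ± 1.17 CPM to 5.96 ± 0.111 CPM (log2 change -1.004 ± 0.16, adjusted p = 0.000231). The myeloid markers summed to 44.9, 42.6, 43.0 and 41.2 CPM in WT_GC and at 57.0, 49.8, 49.6 and 49.3 CPM in SpdefKO_GC, without overlap, and 3 of 9 tested members rose, 0 fell and 2 were kept. Only 1 myeloid marker rose without WT_GC 11, without SpdefKO_GC 19 or with only the GC libraries. S100a8 and S100a9 had no read in either group, and the lymphoid markers summed to 0.893 to 1.65 and 1.56 to 2.99 CPM. The part of such cells in the gain was not tested. Iigp1 was also at 1.38 ± 0.550 CPM in WT_EC and 38.9 ± 38.3 CPM in SpdefKO_EC.

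Promoters of 2 of the risen genes are shown as examples that hold GAAACT, part of a known element of interferon-response genes. Oasl1 is at chr5:114922990-114923239 (plus strand) and Gbp3 at chr3:142559794-142560043 (plus strand) of GRCm38, with capitals as above.
Oasl1: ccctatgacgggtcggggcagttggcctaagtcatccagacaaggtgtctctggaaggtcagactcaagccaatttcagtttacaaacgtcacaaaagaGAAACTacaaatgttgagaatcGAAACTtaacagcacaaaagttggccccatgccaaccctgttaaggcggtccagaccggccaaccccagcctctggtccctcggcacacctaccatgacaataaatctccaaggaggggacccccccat
Gbp3: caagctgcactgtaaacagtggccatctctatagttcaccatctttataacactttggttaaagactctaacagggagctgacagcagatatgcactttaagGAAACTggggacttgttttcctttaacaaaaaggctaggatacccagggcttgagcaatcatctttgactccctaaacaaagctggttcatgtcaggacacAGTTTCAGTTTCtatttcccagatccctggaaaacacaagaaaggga
Oasl1 held GAAACT at 2 places and Gbp3 at 3, whereas the same stretch of Oas3, which also rose, held none of the 3 motifs. Of the 27 interferon-stimulated genes with a promoter, 63.0% held GAAACT, and of the 10 guanylate-binding and IRG genes 90.0%, against 12.2% of all tested genes with a promoter. These lists were chosen as interferon-response genes, so their high shares do not bear on the change between genotypes. Among risen members with a promoter, GAAACT was held by 60% of the 10 interferon-stimulated genes and 80% of the 5 guanylate-binding and IRG genes. Among the 197 genes with a promoter that rose at least 2-fold, 18.8% held it, and among the 139 that fell at least 2-fold, 17.3%.

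**Figure D5:**
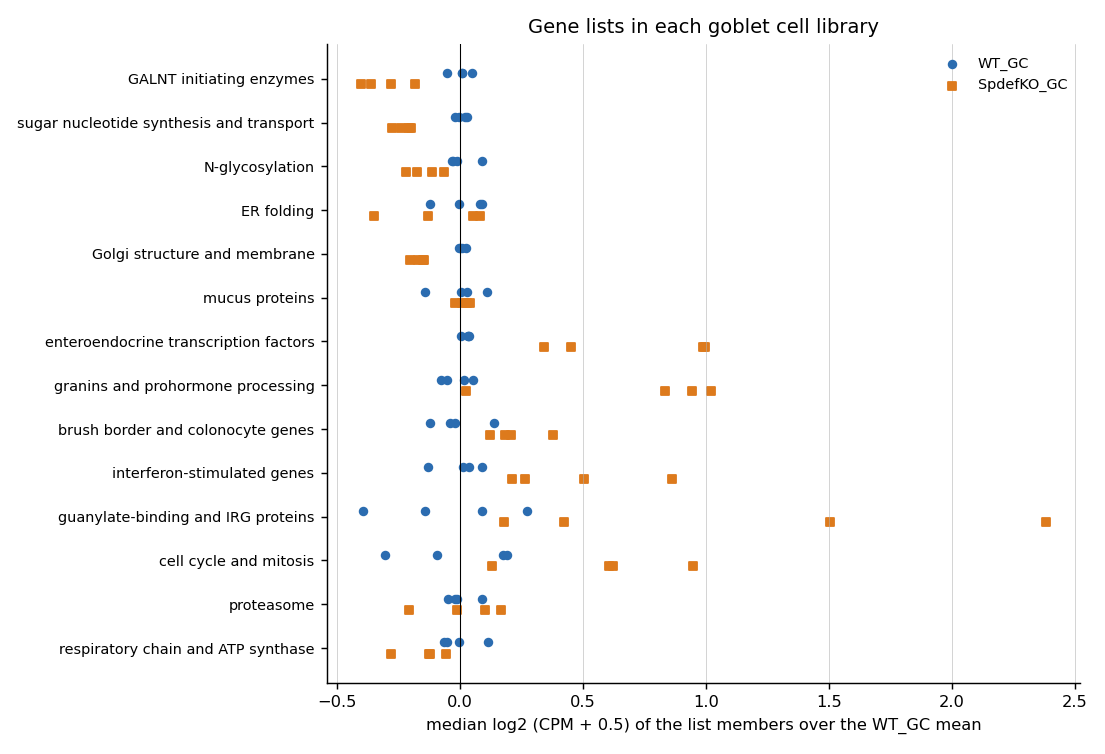
Median log2 level (CPM + 0.5) of the members of 14 gene lists in each GC library over the WT_GC mean, 1 point per library (blue circles WT_GC, orange squares SpdefKO_GC). The guanylate-binding and IRG list spreads from 0.18 to 2.38 over the 4 SpdefKO_GC libraries, whereas the GALNT and sugar nucleotide lists lie below 0 in all 4.

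Some mitotic genes rose, and no DNA replication gene passed the edgeR test. Of the cell cycle and mitosis genes 14 of 35 tested members rose, 0 fell and 1 was kept (median log2 0.62), and of the DNA replication genes none rose, none fell and 7 of 30 were kept. Mki67, expressed in cycling cells, was at 458, 516, 526 and 381 CPM in WT_GC and at 925, 696, 807 and 837 CPM in SpdefKO_GC (log2 change 0.80 ± 0.13, adjusted p = 0.000338). Cenpe and Cenpf, of the kinetochore, rose from 84.4 ± 14.1 CPM to 154 ± 19.9 CPM and from 85.9 ± 14.4 CPM to 154 ± 26.1 CPM. Pcna, the sliding clamp of replication, was at 119 ± 14.1 CPM and 119 ± 31.7 CPM (log2 change -0.0041 ± 0.21, adjusted p = 0.993). By DESeq2 2 replication genes rose, with edgeR 1 rose without WT_GC 9 and 2 without SpdefKO_GC 5, and at an unadjusted p under 0.05 edgeR gave 2 up and 0 down. For the other 23 replication genes the interval reached beyond 1.5-fold, so their level was not shown to be kept. The risen cell cycle count was 9 without WT_GC 9 or SpdefKO_GC 3, and 26 with DESeq2.

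General cell functions were mostly kept. Of the proteasome genes 30 of 31 were kept, of the Notch pathway genes 14 of 18, of the aminoacyl-tRNA synthetase and amino acid stress genes 24 of 33 and of the cholesterol and fatty acid synthesis genes 26 of 34, against 57.2% of all genes. That reference is not matched for level. The interval, called or not, lay within 1.5-fold for 14.5% of genes at 1 to 5 CPM in the higher group. It did so for 82.2% at 20 to 100 CPM and 85.2% at 100 CPM or more. Psmd8, of the proteasome, was at 106 ± 3.41 CPM and 107 ± 6.93 CPM (log2 0.017, 95% interval -0.11 to 0.14). Of the ribosomal protein genes 1 of 71 tested members rose, 12 fell and 56 were kept, and of the respiratory chain and ATP synthase genes 0 of 74 tested members rose, 21 fell and 53 were kept. The falls were small, for example Cox8a from 340.3 ± 21.01 CPM to 261 ± 7.61 CPM (log2 change -0.38 ± 0.058, adjusted p = 0.000131) and Rps28 from 327 ± 21.3 CPM to 263 ± 12.2 CPM (log2 change -0.31 ± 0.074, adjusted p = 0.00545). Ndufa7, of complex I, fell from 81.4 ± 6.83 CPM to 55.7 ± 4.33 CPM (log2 change -0.55 ± 0.10, adjusted p = 0.000588). The fallen counts were 5 without WT_GC 11 or SpdefKO_GC 7 or 19, 6 without WT_GC 18 and 7 without WT_GC 13 or SpdefKO_GC 3 for ribosomal and 9 without WT_GC 13, 10 without WT_GC 11, 11 without SpdefKO_GC 5 and 13 without WT_GC 18 or SpdefKO_GC 7 or 19 for respiratory genes. A single respiratory gene rose without SpdefKO_GC 5, and 3 ribosomal protein genes rose with DESeq2 and 2 with only the GC libraries. Of the vacuolar ATPase and lysosome genes 2 of 32 tested members rose, 9 fell and 21 were kept, and 1 rose without SpdefKO_GC 5. Hexa, a subunit of hexosaminidase, fell from 213 ± 5.08 CPM to 151 ± 6.40 CPM (log2 change -0.49 ± 0.075, adjusted p = 0.000133). Of the dissociation stress genes 4 of 21 rose, 2 fell and 7 were kept, and the fallen count was 5 without WT_GC 13 and 1 without WT_GC 9 or 18. Nr4a1, an immediate early gene, fell from 602 ± 181 CPM to 194 ± 30.8 CPM (log2 change -1.63 ± 0.26, adjusted p = 0.000545). Hspa1a and Hspa1b, heat-shock genes, rose from 272 ± 17.7 CPM to 423 ± 80.9 CPM and from 466 ± 35.6 CPM to 649 ± 108 CPM.

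Defence and metabolism changed at single genes. Of all tested genes, 10.4% rose, 11% fell and 57.2% were kept. Of the antimicrobial and bacteria-binding proteins 4 of 23 tested members rose, 4 fell and 6 were kept, and 2 rose with no low-count filter and with only the GC libraries. Wfdc2, a protease inhibitor, fell from 125 ± 5.92 CPM to 84.0 ± 4.62 CPM (log2 change -0.57 ± 0.078, adjusted p = 3.85e-05), Slpi, another, rose from 6.81 ± 0.612 CPM to 17.5 ± 3.76 CPM (log2 change 1.36 ± 0.28, adjusted p = 0.00238). Pigr, the carrier of IgA into the gut lumen, was at 4034 ± 35.6 CPM and 3549 ± 397 CPM (log2 change -0.18 ± 0.081, adjusted p = 0.114). Pigr passed as lower without SpdefKO_GC 5 (adjusted p = 0.0223). Of the serine proteases and inhibitors 2 of 19 tested members rose, 6 fell and 9 were kept, with Tpsg1, Spink3 and Klk1 among the fallen and Tmprss2 kept (log2 -0.087, 95% interval -0.21 to 0.038). None of them rose without WT_GC 11 or SpdefKO_GC 19, and 1 rose without WT_GC 9 or 13 or SpdefKO_GC 3 or 7, with no low-count filter and with limma-voom. Of the xenobiotic and steroid metabolism genes 4 of 33 tested members rose, 4 fell and 14 were kept. The risen and fallen shares, 12.1% each, were close to those of all tested genes. Ces1f, a carboxylesterase, fell from 27.3 ± 0.984 CPM to 9.17 ± 1.82 CPM (log2 change -1.57 ± 0.11, adjusted p = 1.58e-08), Aldh1b1, a mitochondrial aldehyde dehydrogenase, fell from 340.3 ± 31.5 CPM to 199 ± 8.17 CPM (log2 change -0.77 ± 0.091, adjusted p = 7.33e-06). Cyp3a13, a cytochrome P450, rose from 13.9 ± 1.26 CPM to 24.3 ± 5.34 CPM (log2 change 0.80 ± 0.15, adjusted p = 0.000905). Of the fatty acid oxidation and ketogenesis genes 1 of 29 tested members rose, 6 fell and 18 were kept. Bdh1, which interconverts ketone bodies, fell from 131 ± 8.37 CPM to 88.6 ± 7.01 CPM (log2 change -0.56 ± 0.090, adjusted p = 0.000226). Hadha, of mitochondrial beta-oxidation, was kept (log2 0.019, 95% interval -0.088 to 0.13). Acly, which makes cytosolic acetyl-CoA, fell from 756 ± 63.1 CPM to 518 ± 47.7 CPM (log2 change -0.55 ± 0.10, adjusted p = 0.000668). Scd1, a fatty acid desaturase, rose from 63.1 ± 10.1 CPM to 104 ± 24.5 CPM (log2 change 0.73 ± 0.18, adjusted p = 0.00787). Of the autophagy genes 1 of 30 tested members rose, 4 fell and 23 were kept, the fallen share of 13.3% being close to that of all tested genes. Map1lc3a, an LC3 protein of autophagosomes, fell from 35.1 ± 3.29 CPM to 21.3 ± 3.66 CPM (log2 change -0.72 ± 0.11, adjusted p = 0.000121). Becn1 was kept (log2 -0.0077, 95% interval -0.11 to 0.10). The fallen autophagy count was 2 without WT_GC 9 or 11 or SpdefKO_GC 3, 7 or 19, with no low-count filter and with only the GC libraries, and the risen count 2 without WT_GC 11 or SpdefKO_GC 3, 7 or 19 and with DESeq2.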

How the data were processed

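Goblet and other epithelial cells were lysed after sorting, and RNA was purified on MinElute columns for GC and Mini columns for EC, per the labels' protocols. Libraries were made with a stranded total RNA kit after ribosomal RNA removal. Tools listed in the submitters' processing notes are STAR 2.4.0f, HTSeq 0.6.1p1, FastQC 0.11.2 and DESeq2 1.14, and the listed build is mm10. An annotation, a strand setting and filters were not given in the sources used here. The authors deposited whole-number read counts per gene for all 16 libraries, and these counts were tested. A second deposited table held the same values divided by 1 size factor per library (a normalized signal, factors 0.674 to 1.26), which was used only as a check and for gene symbols. The 3 entries that name no gene, 47.1 to 54.7% of all counts, were left out.

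Counts were fitted in R 4.3.3 with edgeR 4.0.16 (TMM factors, filterByExpr by group, robust quasi-likelihood test) in 1 model of all 16 libraries with a coefficient per group, and p-values were adjusted over all 12915 tested genes by the Benjamini-Hochberg method. All adjusted p-values in the text are from that fit unless another tool is named. The error beside a log2 change is an approximate SE, the change divided by the root of its F statistic. Intervals for kept genes are from limma-voom (limma 3.58.1). The interaction of genotype and sorted fraction was tested in the edgeR model. Alternatives were upper-quartile factors, DESeq2 1.42.0, limma-voom, no filter on low counts, only the GC libraries, and leaving out each GC library in turn. The fitting code was checked on simulated data.

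The genes and the 49 function and 13 marker lists were chosen with earlier results of these data known. Genes named are Spdef, Muc2, A4gnt, B3gnt6, Creb3l4 and Casc4, and the 15 fallen and 15 risen genes of smallest p among changes of at least 2-fold with at least 5 CPM in the higher group and no overlap of the groups. From each list the text takes examples among up to 3 fallen, 3 risen and 3 kept members of smallest p or narrowest interval, and members of lists of 12 or fewer. The labels do not tie the libraries to separate mice, and p-values therefore cover only the spread between libraries, which may be technical. Genes with near-identical relatives, and the 38 of 390 looked up that overlap a tested gene on the opposite strand, have uncertain counts. Gene counts per GC library were 10969888 to 17111987, and the common dispersion of 0.0137 corresponds to a coefficient of variation of 11.7% between libraries.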

Additional observations from a re-analysis of the deposited data

Results flagged for a closer look

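Of the 9 genes for which the genotype difference in GC was compared with that in EC by the edgeR interaction test, 7 differed. The difference in GC minus that in EC was log2 -4.72 for B3gnt6, -4.01 for Casc4 and -3.87 for Creb3l4, all of which fell in GC. It was log2 1.34 for Guca2a, 2.65 for Gcg and 2.50 for Chgb, which rose in GC. For Muc2 it was log2 0.84 (adjusted p = 0.0308), with 12087 ± 681 CPM in WT_GC, 12550 ± 1691 CPM in SpdefKO_GC, 48.4 ± 8.14 CPM in WT_EC and 28.1 ± 8.94 CPM in SpdefKO_EC.

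In 23 of the 404 groups of 4 libraries examined (192 genes and 10 marker sums in both GC groups), 1 library lay far from the other 3 relative to the range of the group. Chance gives this in about 1 of 20 groups. Library SpdefKO_GC 5 was the distant one 7 times. Its values against the range of the other 3 libraries were 143 CPM for Casd1 (134 to 135 CPM), 121 CPM for Ern1 (87.3 to 90.5 CPM), 380.1 CPM for Galnt10 (326 to 330.2 CPM), 1667 CPM for Hsp90b1 (2288 to 2338 CPM), 354 CPM for Kit (224 to 239 CPM), 1.39 CPM for Muc20 (0.853 to 0.919 CPM) and 10.7 CPM for Oas2 (7.40 to 7.85 CPM). In the same form, library SpdefKO_GC 7 was distant for Atf6 at 163 CPM (145 to 147 CPM), Ces1f at 11.9 CPM (7.89 to 8.48 CPM) and Gfpt1 at 1349 CPM (1262 to 1273 CPM). Library SpdefKO_GC 19 was distant for Gng2 at 11.02 CPM (16.3 to 17.2 CPM), Muc13 at 1668 CPM (1511 to 1519 CPM) and the tuft cell marker sum at 31.2 CPM (58.6 to 63.2 CPM), and library SpdefKO_GC 3 for Chgb at 102 CPM (142 to 144 CPM) and the myeloid cell marker sum at 57.0 CPM (49.3 to 49.8 CPM). Among the WT_GC libraries, library 13 was distant for C1galt1c1 at 154 CPM (145 to 146 CPM), Capns1 at 263 CPM (226 to 231 CPM), Creb3l1 at 158 CPM (182 to 186 CPM) and Tpsg1 at 130.2 CPM (109 to 112 CPM), library 18 for Myrip at 10.6 CPM (7.39 to 7.76 CPM) and Vcan at 20.02 CPM (16.9 to 17.3 CPM) and library 9 for Hadha at 245 CPM (260.5 to 263 CPM) and Unc13d at 5.596 CPM (7.65 to 7.98 CPM).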

How the results depend on the processing

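No paired analysis was made because the labels give no pairing of libraries. Whether GC and EC libraries of a genotype came from the same mice is not told. Each GC library number adjoins an EC library number of the same genotype, and a pairing by number was not tested. The model and its interaction test treated all 16 libraries as independent. The genes higher and lower in SpdefKO_GC numbered 1342 and 1422, and over the other tools, factors, filter and sample choices 1106 to 1615 and 1290 to 1548, the higher share lying between 44.2 and 53.8% over all alternatives. Leaving out 1 library gave 920 to 1324 higher and 1097 to 1332 lower genes. The number of genes whose interval lay within 1.5-fold, called or not, was 8352, and it was 3774 with the bound narrowed to a 25% increase or its inverse, which by construction admits fewer genes. Of the 192 genes named, 176 kept their side of the threshold in all 13 alternatives, and none of the 192 reversed the direction of a call. The direction of genes that stayed uncalled was not compared. The Muc2 difference between GC and EC (log2 0.84) was no longer called with no low-count filter (log2 0.83, adjusted p = 0.0811) or without WT_GC 9 or 13 or SpdefKO_GC 5, with log2 0.75 to 0.92 over the libraries left out. The cause was not tested. For A4gnt this difference was log2 -3.42 and not called by edgeR (adjusted p = 0.902), and log2 -5.57 and called by limma-voom (adjusted p = 0.000113), with no A4gnt read in SpdefKO_EC.

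Genes below about 1 CPM, among them Neurog3 and Nlrc5 in WT_GC, rest on few reads per library.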

Other observations

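Transport genes of absorptive cells moved both ways in SpdefKO_GC. Of the absorptive transporters 4 of 24 tested members rose, 3 fell and 6 were kept. Abcg2, an efflux pump of xenobiotics, rose from 12.98 ± 1.495 CPM to 20.4 ± 4.19 CPM (log2 change 0.66 ± 0.15, adjusted p = 0.00391). Abcb1a, another efflux pump, fell from 228 ± 33.1 CPM to 166 ± 24.6 CPM (log2 change -0.46 ± 0.14, adjusted p = 0.0292), a call lost without WT_GC 9, 11 or 18 or SpdefKO_GC 3 or 7 and with no low-count filter (adjusted p = 0.0588 to 0.0916). The glucose carrier Slc2a1 and the lactate carrier Slc16a1 were kept (log2 0.20, 95% interval -0.0033 to 0.39 for Slc16a1). The fallen count was 1 without WT_GC 11 or 18 or SpdefKO_GC 3 or 7 and with no low-count filter, and 7 rose with DESeq2. Of the aquaporin and sodium absorption genes 3 of 13 tested members rose, 2 fell and 6 were kept. The water channel Aqp4 rose from 304 ± 26.4 CPM to 397 ± 31.0 CPM (log2 change 0.39 ± 0.087, adjusted p = 0.00374). Atp1b1, a subunit of the sodium pump, was kept (log2 0.083, 95% interval -0.077 to 0.24). The counts were 1 without WT_GC 11 or 13 or SpdefKO_GC 19 for risen and 0 without WT_GC 13 or SpdefKO_GC 3 or 5 and 1 without WT_GC 9 or 18 for fallen members.

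Among genes of amino acid supply, Slc7a11, the cystine importer, rose from 19.3 ± 2.88 CPM to 28.4 ± 1.76 CPM (log2 change 0.55 ± 0.11, adjusted p = 0.00146). Slc7a5, a carrier of large neutral amino acids, fell from 36.1 ± 6.15 CPM to 24.2 ± 3.57 CPM (log2 change -0.58 ± 0.17, adjusted p = 0.0194). Nsdhl, of cholesterol synthesis, rose from 43.3 ± 3.71 CPM to 58.3 ± 8.78 CPM (log2 change 0.43 ± 0.10, adjusted p = 0.0054).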
